A study of Homo sapiens with 14 samples.

Results

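The genes described are 10 mRNAs encoding AP-1 transcription factors, JUN, JUNB, JUND, FOS, FOSB, FOSL1, FOSL2, ATF2, ATF3 and BATF3, taken by name from 58434 gene symbols with read counts in 14 libraries. The libraries came from MDA-MB-231, an established human breast cancer line with a mesenchymal phenotype and no estrogen receptor, carrying a doxycycline-inducible lentiviral short hairpin RNA (shRNA). One line, MB-231-shNSi, expressed a non-silencing shRNA, and the other, MB-231-shDAP5, expressed an shRNA against DAP5, a translation initiation factor of the eIF4G family encoded by EIF4G2. Both lines received doxycycline at 1 µg/ml for 6 days before lysates of cycloheximide-treated cells were separated on sucrose gradients, so every control also carried the drug and an induced hairpin, and each line stands for 1 hairpin. There were 2 cultures of each line, sampled as total mRNA, as light polysomes (few ribosomes per mRNA) and as heavy polysomes (many ribosomes per mRNA), and shNSi also had a moderate polysome pool. The study describes 2 independent sets of experiments, and the labels give each culture a number only. The titles of the shDAP5 light libraries say light, yet their code is the one that shNSi moderate libraries have, and the titles of the shDAP5 total libraries add the word polysome. Both were taken by the word light or total in the title, and libraries of 1 line with the same number were taken as 1 culture.

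AP-1 is a family of dimers held together by a leucine zipper, in which JUN proteins pair with each other or with FOS or ATF proteins and bind short palindromic DNA elements. Many of its genes are immediate early genes: their mRNAs are induced within minutes of growth factors, stress or fresh serum and are short-lived, and the proteins are further controlled by JNK and ERK kinases and by ubiquitin ligases. In mesenchymal breast cancer cells FOSL1 (also called FRA-1) is known as the prevailing FOS family member and drives genes of migration and matrix breakdown.

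AP-1 genes are themselves known to carry AP-1 and ATF elements, and the stretches below show 3 matches found before the start of a member. In RefSeq promoter sequences of GRCh38.p14, which run from 250 bases before to 50 bases after the start of each gene and cover 8 of the 10 genes, the 8-base JUN element TGACATCA lay in the promoters of JUN and ATF3, and the cyclic AMP element TGACGTCA lay in that of JUND. The capitals mark the element, read on the strand of the gene.
JUN, chr1:58784099-58784122, minus strand: ccttggggTGACATCAtgggctat
ATF3, chr1:212565276-212565299, plus strand: ctatgataTGACATCAtatggcca
JUND, chr19:18281807-18281830, minus strand: cgcccccaTGACGTCAacccacaa
The elements began 67, 123 and 200 bases before the RefSeq start of JUN, ATF3 and JUND (distances −67, −123 and −200), and the JUN stretch lies inside the single exon that GENCODE v29 gives for JUN. Searched on both strands, TGACATCA occurred in 2.61% of 35116 promoters and TGACGTCA in 1.85%. The classical AP-1 element TGACTCA occurred in 4.95% of promoters and in 1 of the 8 members, where it did not lie wholly before the start and is not shown. The CArG box, the element of serum response factor, occurred in 1.29% and in none of the 8. Sequence outside these windows was not searched, so elements farther from the start would be missed. A match is a description of the letters and says nothing of binding in these cells.

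Libraries held 25899838 to 30795910 counts, and all 10 members passed the filter on low counts in every comparison. EIF4G2 was at 1391 and 1358 CPM (read counts scaled to library size by TMM over the 14 libraries) in shNSi total mRNA and at 525 and 730 CPM in shDAP5, a log2 change of −1.11 ± 0.18 (standard error; adjusted p = 0.0172 by the quasi-likelihood F test of edgeR, corrected across 14992 genes by Benjamini-Hochberg). The call was lost without shDAP5 replicate 1 (−0.90, adjusted p = 0.680), in 1 edgeR fit of all 14 libraries (−1.13, adjusted p = 0.443), with limma (−1.08, adjusted p = 0.107) and with library size without TMM (−1.07, adjusted p = 0.0501). Here and in what follows, a culture left out leaves its line with 1 library per fraction, whose spread is assumed to be that of the other line, so such p-values carry no replicate check of that line. In these bulk libraries fewer cells with an mRNA and less of it per cell cannot be told apart. The line's markers were present, among them VIM at 797 to 14737 CPM and CD44 at 105 CPM and above, whereas PGR had no read, ESR1 was at or below 0.606 CPM, CDH1 at or below 0.249 CPM and EPCAM at 2.91 to 6.10 CPM. Blood markers summed to at most 0.218 CPM, with HBB without a read in any library. Fibroblast markers, almost all COL1A1, summed to 35.3 and 87.8 CPM in shNSi heavy polysomes, 17.7 and 16.4 CPM in shDAP5 heavy polysomes and 8.08 to 32.8 CPM elsewhere, and DCN had no read in 8 libraries. Their part in the results below was not tested.

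FOSL1 was the most abundant AP-1 mRNA, followed by JUN, in both lines. Per kilobase of transcript, total mRNA of shNSi held 465 ± 112 CPM per kb of FOSL1 (SD, n = 2) and 129 ± 44.1 of JUN, and total mRNA of shDAP5 held 435 ± 0.665 and 135 ± 37.5. FOSL1 made up 57.6% to 66.8% of the summed CPM per kb of the 10 mRNAs in the 4 total libraries, and JUN 15.5% to 21.4%. In shNSi the order then ran through FOSL2, encoding FRA-2, at 31.7 CPM per kb, JUNB at 21.6, JUND at 20.2, BATF3 at 11.9, FOS at 10.6, ATF2 at 8.28, ATF3 at 4.18 and FOSB at 0.491. JUNB and JUND overlapped between cultures, as did BATF3 and FOS, and FOS and ATF2, so these neighbours were not separated. In shDAP5 JUND ranked 3, at 48.6 CPM per kb, above the range of FOSL2, while FOSL2 and JUNB, and FOS and BATF3, overlapped. FOSB, whose locus overlaps ERCC1 on the opposite strand, never exceeded 2.38 CPM or 73 reads in a library, which limits what can be said of it.

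**Figure D1:**
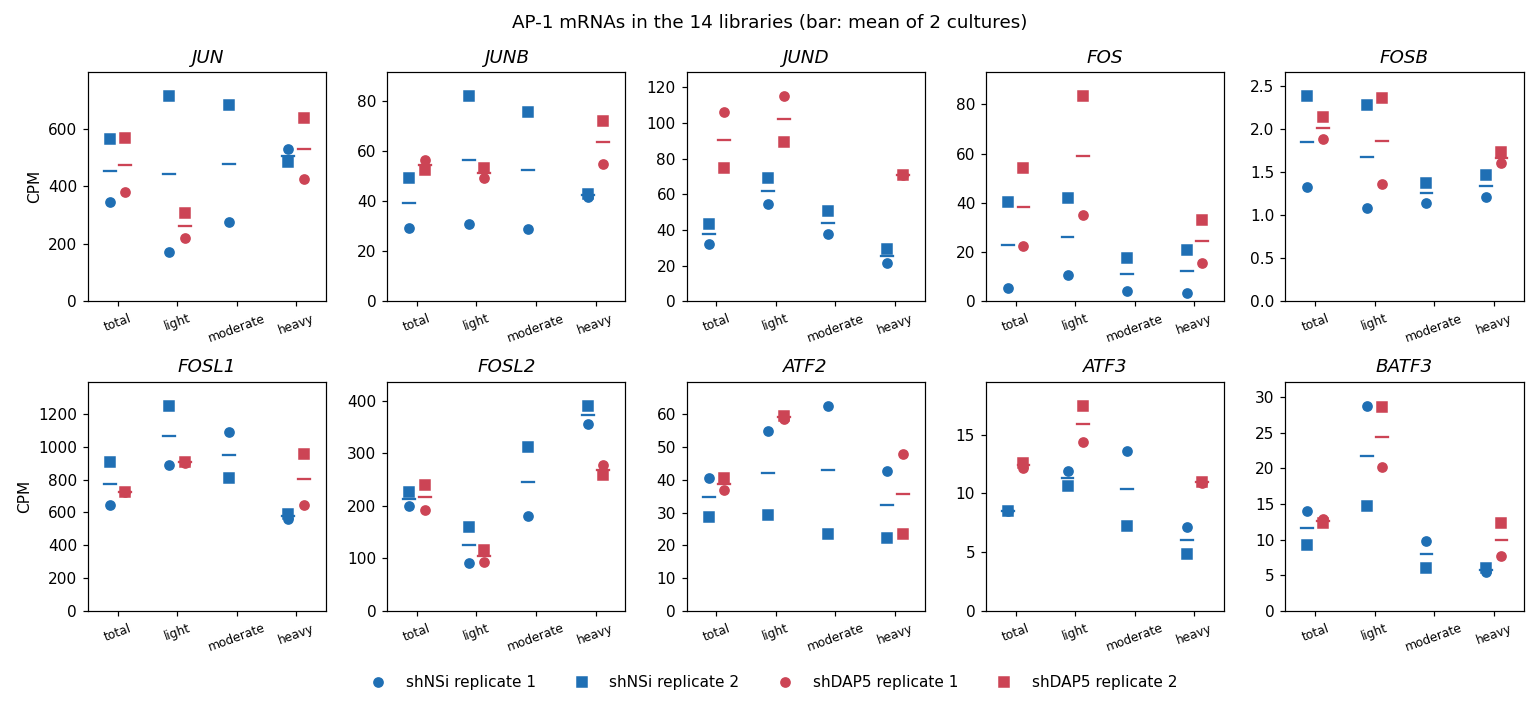
CPM (linear axis from 0, a scale for each gene) of the 10 AP-1 mRNAs in total, light, moderate and heavy libraries; blue is shNSi, red is shDAP5, circles and squares are replicates 1 and 2, and bars are means of the 2 cultures. Both shDAP5 cultures lie above both shNSi cultures for JUND in total, light and heavy libraries, while the 2 shNSi light libraries of JUN lie at 170 and 713 CPM.

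JUND, a JUN protein that is expressed more constantly than the others and often restrains growth, was the AP-1 mRNA that changed in total mRNA with DAP5 silencing. The gene is a single exon at 18279760 to 18281622 of chromosome 19 (minus strand, GENCODE v29, GRCh38). Its total mRNA was at 32.2 and 43.3 CPM in the shNSi cultures and at 106 and 74.6 CPM in the shDAP5 cultures. Heavy polysomes held 21.3 and 29.1 CPM in shNSi against 70.7 and 70.5 in shDAP5. Light polysomes held 54.3 and 69.0 CPM in shNSi against 115 and 89.2 in shDAP5. The cultures of the 2 lines did not overlap in any of these fractions. JUND rose by a log2 change of 1.29 ± 0.22 in total mRNA (adjusted p = 0.0262, edgeR) and of 1.67 ± 0.34 in heavy polysomes (adjusted p = 4.3e-05, edgeR over 14270 genes). In light polysomes the value was 0.72 ± 0.29 (adjusted p = 0.559, edgeR over 15529 genes). Translation efficiency, the polysome mRNA relative to total mRNA of the same culture, differed by 0.39 ± 0.34 for heavy polysomes (adjusted p = 0.463) and −0.54 ± 0.21 for light polysomes (adjusted p = 0.879), neither past the threshold of 0.05 in edgeR. The call in total mRNA was lost without shDAP5 replicate 1 (1.00, adjusted p = 0.734), with all 14 libraries in 1 edgeR fit (1.26, adjusted p = 0.259), with limma (1.29, adjusted p = 0.0976) and with library size without TMM (1.34, adjusted p = 0.0514). The call in heavy polysomes was lost without shDAP5 replicate 2 (1.64, adjusted p = 0.0777) and with shNSi heavy and moderate pools summed as the control (1.06, adjusted p = 0.0709).

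Across the 10 mRNAs, JUND was thus the 1 called in total mRNA, where 0.354% of all genes tested were called in either direction and 0.0867% were called higher and 0.267% lower. The median log2 change of the 10 was 0.17, against 0.014 over all genes. Besides JUND, the shDAP5 cultures lay above both shNSi cultures for JUNB and ATF3, so 3 of 10 did not overlap between lines, where 42.3% of all genes did not. The smallest two-sided p of an exact permutation test on 1 gene, 2 cultures against 2, is 0.333.

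In heavy polysomes 3 members rose, JUND, ATF3 and BATF3, and none fell, where 30.9% of all genes tested were called (14.2% higher, 16.7% lower). The median log2 change of the 10 was 0.72, against 0.094 over all genes, and 7 of 10 did not overlap between lines (6 higher, FOSL2 lower), where 66.1% of all genes did not. A share of 3 in 10 is close to that of all genes. ATF3 is a stress-induced factor that mostly represses transcription, on chromosome 1 from 212565334 to 212620777, plus strand. Its heavy polysome level was 7.14 and 4.88 CPM in shNSi and 10.9 and 11.0 CPM in shDAP5, a rise of 1.04 ± 0.38 on the log2 scale (adjusted p = 0.0251, edgeR). BATF3, a partner of JUN without a transactivation domain, known from dendritic cells, lies on the same chromosome from 212686418 to 212699985, minus strand. It was at 5.41 and 6.02 CPM in shNSi heavy polysomes and at 7.70 and 12.3 CPM in shDAP5, a rise of 0.99 ± 0.38 (adjusted p = 0.0361, edgeR). Both rest on few reads, 103 to 537 per library for ATF3 and 116 to 883 for BATF3. The ATF3 call was lost when any culture but shNSi replicate 1 was left out (0.76 to 1.02, adjusted p = 0.106 to 0.251), and that of BATF3 when any but shDAP5 replicate 1 was left out (0.58 to 1.03, adjusted p = 0.115 to 0.423). With offsets that remove the trend with coding length in each library, ATF3 changed by 0.26 (adjusted p = 0.647) and BATF3 by −0.020 (adjusted p = 0.976) in edgeR. Both calls were also lost with no filter on low counts (adjusted p = 0.0644 for ATF3 and 0.0963 for BATF3), in the edgeR fit of all 14 libraries (0.0587 and 0.136) and with heavy and moderate pools summed as the control (0.762 and 0.613). BATF3 was not called by DESeq2 (0.91, adjusted p = 0.0702) or limma (0.71, adjusted p = 0.0946).

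**Figure D2:**
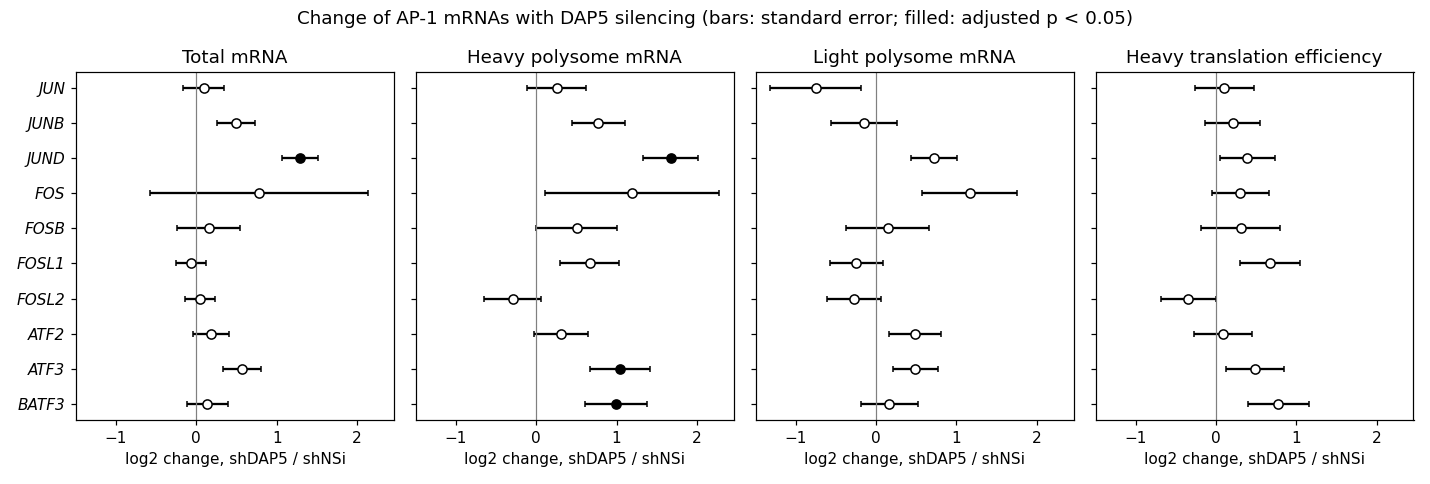
Log2 change of each AP-1 mRNA, shDAP5 over shNSi, in total mRNA, heavy polysome mRNA, light polysome mRNA and heavy translation efficiency, with standard errors; filled points have an adjusted p below 0.05 in edgeR. Filled points are JUND in total mRNA (1.29) and JUND (1.67), ATF3 (1.04) and BATF3 (0.99) in heavy polysomes.

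JUNB, a JUN protein that often opposes JUN, shows how close some values lay to the threshold. Its gene, on chromosome 19 from 12791496 to 12793315, overlaps HOOK2 on the opposite strand, and the sources used here do not state whether reads were counted by strand. Heavy polysomes held 41.6 and 43.0 CPM in shNSi and 55.1 and 72.0 CPM in shDAP5, with no overlap, and the log2 change was 0.77 ± 0.33 (adjusted p = 0.0597, edgeR). Limma gave 0.81 (adjusted p = 0.0443) and edgeR with library size without TMM gave 1.00 (adjusted p = 0.0304), both past the threshold. In total mRNA, with 29.3 and 49.4 CPM against 56.4 and 52.4, the value was 0.49 ± 0.23 (adjusted p = 0.427, edgeR).

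JUN and FOSL1, the most abundant members of their subfamilies, did not pass the test in any comparison of shDAP5 with shNSi. JUN, the founding AP-1 protein and the main target of JNK, lies on chromosome 1 from 58780788 to 58784327, minus strand. Its total mRNA was at 345 and 566 CPM in shNSi and 382 and 570 CPM in shDAP5, and its heavy polysome mRNA at 529 and 486 CPM against 426 and 638 CPM. These ranges overlap, with log2 changes of 0.091 ± 0.25 (adjusted p = 0.942) and 0.25 ± 0.37 (adjusted p = 0.623) in edgeR. In both comparisons the JUN change turned negative when 1 culture was left out, to −0.23 and −0.25 in total mRNA without shDAP5 replicate 2 or shNSi replicate 1, and to −0.10 in heavy polysomes without shDAP5 replicate 2. In light polysomes the shNSi cultures lay far apart, at 170 and 713 CPM, with the shDAP5 cultures between them at 220 and 308 CPM, and the moderate pool of shNSi showed the same split at 274 and 682 CPM. Of all genes, 0.320% differed between the shNSi light cultures by as much as JUN did. The light polysome change was −0.75 ± 0.57 (adjusted p = 0.708, edgeR). It was −1.46 without shNSi replicate 1 and 0.63 without shNSi replicate 2, each set against a single control library.

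FOSL1 lies on chromosome 11 from 65892049 to 65900573, minus strand. Total mRNA of FOSL1 was at 643 and 908 CPM in shNSi and at 726 and 725 CPM in shDAP5, a log2 difference of −0.068 ± 0.18 (adjusted p = 0.940, edgeR). Heavy polysomes held 559 and 593 CPM in shNSi and 646 and 957 CPM in shDAP5, so both shDAP5 cultures lay above both controls. The heavy polysome difference was 0.67 ± 0.37 (adjusted p = 0.160, edgeR), and 0.90 (adjusted p = 0.0267) with limma. For heavy translation efficiency it was 0.67 ± 0.37 (adjusted p = 0.224, edgeR), and 0.98 (adjusted p = 0.0485) without shDAP5 replicate 1, where 1 silenced culture remains. FOSL2 was the member with lower heavy polysome levels in shDAP5, at 355 and 389 CPM in shNSi and 278 and 258 CPM in shDAP5. The groups did not overlap, but the log2 difference of −0.29 ± 0.35 did not pass the test (adjusted p = 0.557, edgeR), and limma with quantile normalization gave 0.055 (adjusted p = 0.903).

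FOS, the immediate early partner of JUN, varied widely between the cultures of both lines. The gene lies on chromosome 14 from 75278774 to 75282230, plus strand. Total FOS mRNA was at 5.28 and 40.4 CPM in shNSi and 22.4 and 54.3 CPM in shDAP5. Heavy polysomes held 3.54 and 20.9 CPM against 15.7 and 32.9 CPM, and light polysomes 10.6 and 41.9 CPM against 35.2 and 83.2 CPM. In every fraction, the moderate pool included, replicate 2 of a line was above its replicate 1, and the lines overlapped. On the scale of CPM plus 0.5, the shNSi total libraries differed 7.08-fold, and 0.0133% of 14992 genes differed between them by as much. The log2 change with silencing was 0.78 ± 1.36 in total mRNA (adjusted p = 0.913), 1.20 ± 1.08 in heavy polysomes (adjusted p = 0.494) and 1.16 ± 0.59 for light ones (adjusted p = 0.612), all in edgeR. Set against shNSi replicate 1 alone, without replicate 2, FOS stood at 2.93 in heavy polysomes and 2.48 in light ones, and leaving out shDAP5 replicate 1 gave 1.54 in heavy polysomes. These fits called FOS, but the remaining library of a line is taken to vary like the other line's pair, while the FOS cultures of a line lay far apart. In total mRNA the value ran from −0.074 without shNSi replicate 1 to 2.87 without shNSi replicate 2. With a replicate block edgeR called FOS higher in total mRNA (1.25), heavy polysomes (1.55) and light polysomes (1.35). The labels do not say that equal numbers mark a shared set, which that block assumes. EGR1 and IER2, immediate early genes outside AP-1 singled out after their values were seen, were split the same way between the shNSi total libraries, at 61.1 and 288 CPM and at 123 and 292 CPM. Of the 14 immediate early genes listed outside AP-1, 8 were higher in replicate 2, where 51.7% of all genes were, with a median log2 difference of 0.18, and KLF6 (−0.60) and NR4A1 (−0.85) were among those that were lower. FOSB, another serum-induced FOS gene, was at 1.33 and 2.38 CPM in shNSi total mRNA and 1.89 and 2.14 CPM in shDAP5, and no comparison of shDAP5 with shNSi called it changed in edgeR.

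ATF2, a stress kinase substrate that pairs with JUN, has the longest gene of the 10, on chromosome 2 from 175072250 to 175168382, minus strand. Total mRNA of ATF2 was at 40.6 and 28.6 CPM in shNSi and 36.8 and 40.4 CPM in shDAP5, a log2 difference of 0.18 ± 0.22 (adjusted p = 0.835, edgeR). Its heavy polysome level depended on the culture in both lines, at 42.5 and 22.2 CPM in shNSi and 47.7 and 23.4 CPM in shDAP5. The light libraries held 54.8 and 29.4 CPM in shNSi and 58.4 and 59.6 CPM in shDAP5, a log2 difference of 0.48 ± 0.32 (adjusted p = 0.673, edgeR).

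Light polysomes called no member, and edgeR called 0% of all genes there. At an unadjusted p under 0.05 there were 1330 genes (8.56%), among them 1 member, JUND, and DESeq2 called 105 genes with no member among them. The median log2 change of the 10 was 0.15, against −0.0066 over all genes, and 3 of 10 did not overlap between lines (JUND, ATF2 and ATF3, all higher), where 41.5% of all genes did not. With 1 control library left, the calls differed. Without shNSi replicate 1, edgeR called 4678 of 16190 genes and 5 members, JUN, JUNB and FOSL2 lower (−1.46, −0.70 and −0.64) and ATF2 and BATF3 higher (0.98 and 0.71). Without shNSi replicate 2 it called 781 of 16193 genes, with FOS, JUND and JUNB higher (2.48, 0.90 and 0.73), so the JUNB value changed sign with the control left out. With the shNSi moderate pool in place of shNSi light, whose code the shDAP5 light libraries share, it called 3940 of 15431 genes, with FOS (2.44), BATF3 (1.63) and JUND (1.22) higher and FOSL2 (−1.23) lower.

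No member changed in heavy translation efficiency, where edgeR called 13.1% of 15374 genes. At an unadjusted p under 0.05 there was 1 member, BATF3 (0.78 ± 0.38), against 29.7% of all genes, and neither DESeq2 nor limma called a member. Without shDAP5 replicate 1, with 1 silenced culture left, BATF3 (1.18, adjusted p = 0.0107) and FOSL1 were called in edgeR. The 10 values ran from −0.34 for FOSL2 to 0.78 for BATF3, with a median of 0.31 against 0.091 over all genes, and 3 of 10 did not overlap between lines (FOSL1 and ATF3 higher, FOSL2 lower), where 59.3% of all genes did not. Light translation efficiency also called no member and 0% of genes in edgeR. At an unadjusted p under 0.05 there were 833 genes (5.22%) and 1 member, JUND (−0.54), and DESeq2 called none. JUNB, JUND and FOSL1 were lower in both shDAP5 cultures than in either control culture and ATF2 was higher, so 4 of 10 did not overlap, where 36% of all genes did not. Without shNSi replicate 1, JUN (−1.17), JUNB (−0.81) and FOS (0.58) were called among 2030 of 16467 genes, and against the moderate pool BATF3 (1.52), FOS (1.45) and FOSL2 (−1.19) were, among 4367 of 15859.

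The change in heavy translation efficiency ran with the length of the coding sequence across all genes, and AP-1 coding sequences are short. They span 381 nucleotides (BATF3) to 1515 (ATF2), in GENCODE v29, where the median of 12485 genes was 1440, and all but ATF2 lie below that median. Across those genes, which are not independent replicates, Spearman's rho between the change and the coding length was −0.707. The median log2 change fell from 0.85 in bin 1 of 10 equal bins of coding length (median 435 nucleotides) to −0.92 in bin 10 (4833 nucleotides). JUN, JUNB, JUND and FOSB, at 993 to 1041 nucleotides, lie between the middles of bins 3 and 4, whose medians were 0.42 and 0.18, and their own values were 0.11, 0.21, 0.39 and 0.31. FOSL2, at 978 nucleotides, lay below the 25th percentile of both bins. With the coding length offsets edgeR called no member in heavy translation efficiency, and BATF3 stood at −0.083, ATF3 at −0.23, JUN at −0.20 and JUNB at −0.051, reversed in sign.

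**Figure D3:**
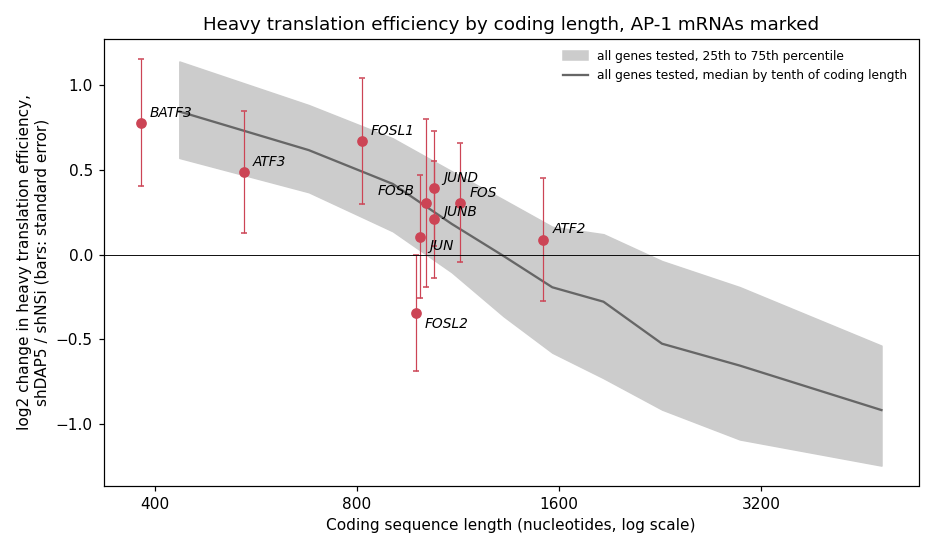
Log2 change in heavy translation efficiency, shDAP5 over shNSi, against coding length (log axis, nucleotides); the grey line and band are the median and the 25th to 75th percentiles of all genes in 10 bins of coding length, and red points are AP-1 mRNAs with standard errors. The median falls from 0.85 to −0.92, and FOSL2, at −0.34, is the AP-1 mRNA below the band.

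Along the gradient of the control cells, heavy over light polysomes in shNSi, 5 members were lower (BATF3, JUND, FOS, ATF3 and FOSL1), FOSL2 was higher, and JUN, JUNB, FOSB and ATF2 were not called. Of all genes, 61.6% were called in edgeR, 31.1% lower and 30.5% higher, so the 6 called of 10 members are close to the share of all genes. The heavy CPM over the light CPM of the same culture, as log2, was −2.41 and −1.29 for BATF3, −1.35 and −1.24 for JUND, −1.57 and −1.004 for FOS, and 1.96 and 1.29 for FOSL2. Both control cultures thus had the same sign for each of these genes. The fitted changes were −1.98 ± 0.32 for BATF3 (adjusted p = 3.35e-05), −1.42 ± 0.29 for JUND (adjusted p = 2.43e-04), −1.40 ± 0.29 for FOS (adjusted p = 3.81e-04) and 1.498 ± 0.33 for FOSL2 (adjusted p = 6.12e-04), in edgeR over 15878 genes. ATF3 changed by −1.06 ± 0.30 (adjusted p = 0.00429) and FOSL1 by −0.998 ± 0.38 (adjusted p = 0.0284). JUN had opposite signs in the 2 control cultures, 1.64 and −0.55, and JUNB likewise, 0.43 and −0.93. The median of the 10 was −0.76, against −0.15 over all genes. With coding length offsets JUND, FOS and FOSL2 were still called, ATF2 was called as well (−1.02, adjusted p = 0.00228), BATF3 (−0.18) and FOSL1 (−0.43) were not, and ATF3 turned to 0.23 (adjusted p = 0.479). Against the moderate pool in place of light, JUND and ATF3 were still called, and BATF3 (−0.57, adjusted p = 0.127), FOS (−0.11, adjusted p = 0.797), FOSL2 (0.52, adjusted p = 0.204) and FOSL1 (−0.84, adjusted p = 0.0761) were not. The FOSL1 call was also lost without shNSi replicate 2 (−0.78, adjusted p = 0.139), without shDAP5 replicate 1 (adjusted p = 0.0692), with no filter (adjusted p = 0.0576) and with heavy and moderate pools summed (−0.55, adjusted p = 0.193). That of ATF3 was lost without shNSi replicate 2 (−0.86, adjusted p = 0.0615) and with summed pools (−0.59, adjusted p = 0.0597). Calls were gained for ATF2 without TMM (−0.95, adjusted p = 0.0056) and with limma (−0.85, adjusted p = 0.0201), for JUNB without TMM (−0.82, adjusted p = 0.0198) and without shNSi replicate 1 (−1.05, adjusted p = 0.0136), and for JUN without shNSi replicate 2 (1.52, adjusted p = 7.68e-04).

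In shDAP5 the same ratio called BATF3, FOS and ATF2 lower and FOSL2 higher, where 39.7% of all genes were called (19.9% lower, 19.8% higher). FOSL2 stood at 1.58 and 1.16 in the 2 cultures, with a fitted change of 1.34 ± 0.33 (adjusted p = 0.00354, edgeR). FOS stood at −1.16 and −1.34 (fitted −1.28 ± 0.28, adjusted p = 0.0017) and BATF3 at −1.40 and −1.22 (fitted −1.34 ± 0.31, adjusted p = 0.00233). JUN was at 0.95 and 1.05 in these cultures, and its fitted value of 0.97 ± 0.42 did not pass in edgeR (adjusted p = 0.0686), though it did with DESeq2 (0.98, adjusted p = 0.0444) and with no filter (1.02, adjusted p = 0.0265). With shNSi replicate 1 or 2 left out and both shDAP5 cultures kept, edgeR called JUN as well (0.987, adjusted p = 0.00324, and 0.992, adjusted p = 0.00219). ATF2 (−0.85 ± 0.30, adjusted p = 0.0283) rested on its replicate 2, at −1.35 against −0.29, and without that culture it was −0.33 (adjusted p = 0.676). The FOSL2 call was lost without either shDAP5 culture (1.18, adjusted p = 0.158, and 1.54, adjusted p = 0.0618), that of FOS without shDAP5 replicate 2 (adjusted p = 0.0761) and that of BATF3 without shDAP5 replicate 1 (adjusted p = 0.0798). With coding length offsets BATF3 was not called (−0.33, adjusted p = 0.295) and JUND was (−0.78, adjusted p = 0.0111). JUND was called as well without TMM (−0.75, adjusted p = 0.0402) and with limma (−0.81, adjusted p = 0.0202), and so was ATF3 (−0.77, adjusted p = 0.0487, and −0.81, adjusted p = 0.0191). JUND, at −0.70 and −0.34, was nearer to 0 than in either shNSi culture, with a fitted −0.55 ± 0.28 (adjusted p = 0.121, edgeR). Over the shNSi moderate pool, whose code the shDAP5 light libraries share, heavy polysome JUND of shNSi stood at −0.81 and −0.79. Whether heavy over light ratios differ between the lines was not tested.

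**Figure D4:**
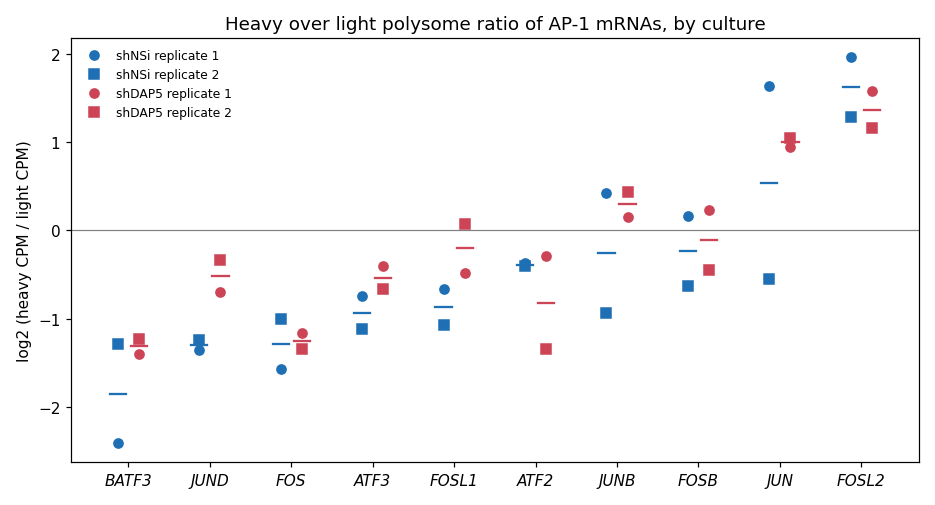
Log2 of heavy CPM over light CPM in each culture for the 10 AP-1 mRNAs, ordered by their mean in shNSi; blue is shNSi, red is shDAP5, circles and squares are replicates 1 and 2, and bars are means. FOSL2 lies above 0 in all 4 cultures (1.16 to 1.96), BATF3, JUND, FOS, ATF3 and ATF2 lie below 0 in all 4, and the JUN cultures of shNSi lie at 1.64 and −0.55.

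Relative to total mRNA, heavy polysomes of shNSi held less BATF3 (−1.19 ± 0.27, adjusted p = 5.37e-04), FOS (−0.96 ± 0.26, adjusted p = 0.00238), JUND (−0.77 ± 0.24, adjusted p = 0.00928) and ATF3 (−0.70 ± 0.26, adjusted p = 0.0245) and more FOSL2 (0.62 ± 0.24, adjusted p = 0.0323), by edgeR, where 45% of all genes were called (21.8% lower, 23.2% higher). The median of the 10 was −0.60, against −0.032 over all genes. Leaving out shNSi replicate 1 left 0 members called in edgeR and leaving out replicate 2 left 1. With coding length offsets BATF3 (−0.029, adjusted p = 0.939) and ATF3 (0.10, adjusted p = 0.768) were not called and ATF2 was (−0.59, adjusted p = 0.0268). The FOSL2 call was lost without TMM (0.29, adjusted p = 0.303), with limma (0.26, adjusted p = 0.323) and with summed pools (0.28, adjusted p = 0.575), which also ended the calls of JUND (−0.27, adjusted p = 0.586) and ATF3 (−0.24, adjusted p = 0.644). ATF3 was not called by DESeq2 (adjusted p = 0.0641) or with no filter (adjusted p = 0.0566), and FOSL1 was called without TMM and with limma (−0.92 in both) and without either shDAP5 culture (−0.59 and −0.58). FOSB, on few reads, was called without TMM (−0.95, adjusted p = 0.0414). In shDAP5 the heavy over total ratio called no member in edgeR, where 2.47% of all genes were called. FOS, at −0.66 ± 0.24 (adjusted p = 0.173), was the 1 member with an unadjusted p under 0.05, against 14.5% of all genes. DESeq2 called none there and limma called 1, FOS (−0.85, adjusted p = 0.0322), as did edgeR with coding length offsets (−0.83, adjusted p = 0.0125).

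Patterns over the 14 libraries, which share cultures and fractions, are given as descriptions. Among 9388 genes with a mean of at least 10 CPM, the genes most like JUN by Pearson's r of log2 CPM were WDR24 (0.901), PQBP1 (0.897) and HNRNPDL (0.886), and those most like FOSL1 were ORAI1 (0.954), PMF1 (0.952) and FAM3A (0.949). Within the family the highest r was that of FOS with FOSB (0.828), followed by ATF3 with BATF3 (0.760) and JUN with FOSL2 (0.742), and the lowest were those of FOSL2 with BATF3 (−0.928), JUN with ATF2 (−0.793) and FOSL2 with ATF3 (−0.761).

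The proteins around AP-1 were followed as lists. The shares of all genes called in edgeR, against which their counts are read, were 0.354% in total mRNA, 13.1% in heavy translation efficiency and 30.9% in heavy polysomes. Heavy translation efficiency had 0 genes called without TMM or with heavy and moderate pools summed, so every list call there was lost in those fits. Its change also ran with coding length, with a Spearman's rho of −0.707. Values of the listed genes with length offsets are not given here. Of the other bZIP partners, none of 18 was called for total mRNA and none of 19 for heavy translation efficiency, and in heavy polysomes 4 of 19 were called, ATF6 lower (−1.31) and ATF4 (1.08), CEBPB (1.08) and ATF1 (0.98) higher. Kinases and phosphatases that act on AP-1 gave 0 of 19 for total mRNA and 1 of 19 for heavy translation efficiency, MAP2K2, encoding the ERK kinase MEK2, which was higher (1.07 ± 0.36, adjusted p = 0.0403, edgeR). In heavy polysomes 5 of 19 were called, below the share of all genes. MAP2K2 (1.33), MAPK3, encoding ERK1 (1.04), and MAPK9, encoding JNK2 (0.80), were higher and RPS6KA3 (−0.998) and MAP3K1 (−0.83) lower. In the control gradient 11 of 19 of these signaling genes were higher in heavy than in light polysomes and 3 were lower, where 30.5% of all genes were higher and 31.1% lower, with a median of 1.05 against −0.15 over all genes. In the same comparison 9 of 19 bZIP partners were lower and 3 higher, with a median of −0.78. Across 12601 genes this ratio rose with coding length (Spearman's rho 0.641), and the part of length in the list values was not tested.

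Of the 7 ubiquitin ligases and adaptors that act on JUN and FOS proteins, 0 changed in total mRNA. For heavy translation efficiency 3 of 7 were lower and 1 higher, where 13.1% of all genes were called. Among them, DCAF1 (−1.21 ± 0.36, adjusted p = 0.0239) and ITCH, a ligase of JUN and JUNB (−1.07 ± 0.35, adjusted p = 0.0375), were lower and STUB1 (1.15 ± 0.34, adjusted p = 0.0236) was higher, by edgeR. DCAF1 and STUB1 passed in the same directions in heavy polysomes (−1.54 and 1.24). The list's median in heavy translation efficiency was 0.14, against 0.091 over all genes. The list's calls in heavy translation efficiency were lost without TMM and with summed pools, where edgeR called 0 genes.

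Immediate early genes outside AP-1 gave 0 of 14 calls for total mRNA and likewise 0 of 14 for heavy translation efficiency. In heavy polysomes NR4A1 (1.13), IER3 (1.01), ZFP36 (0.93) and MYC (0.91) were higher and CTGF (−0.92) lower, so 5 of 13 tested were called, where 30.9% of all genes were (14.2% higher, 16.7% lower), and the median was 0.71 against 0.094 over all genes. Known AP-1 target genes gave 1 of 20 in total mRNA, the stromelysin MMP3, which was lower (−3.63 ± 0.59, adjusted p = 0.0412, edgeR), where 0.267% of all genes were lower. MMP3 rests on few reads, with a mean of 3.37 CPM in total mRNA and 0.350 CPM in its lowest library. In heavy polysomes 8 of 20 targets were lower, among them the collagenase MMP1 (−4.87), and also VIM and CD44, which were used above as markers of the line, and 3 were higher, IL6 (1.77), IL11 (1.05) and VEGFA (0.83), where 16.7% of all genes were lower and 14.2% higher. The median of the targets was −0.33. Heavy translation efficiency was lower for 3 of 21 targets and higher for none, where 13.1% of all genes were called, and among them were PTGS2 (−1.63 ± 0.41, adjusted p = 0.0113) and MMP1 (−1.22 ± 0.35, adjusted p = 0.0189), by edgeR. The median of the targets there was 0.16, against 0.091 over all genes. Without TMM or with summed pools edgeR called 0 genes there, so these calls were lost. None of these 5 lists had a gene called in light polysomes or light translation efficiency by edgeR. That holds for every gene, since edgeR called 0% of all genes in both. The genes named for heavy polysomes were picked after their values were seen.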

How the data were processed

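The authors deposited whole-number read counts per gene symbol, not normalized. The submitters' processing notes name STAR 2.6.0a, limma and hg19, and the strand setting and the treatment of reads shared by genes were not given in the sources used here. Of 58434 symbols, 27761 had no read and 27 had turned into dates. In R 4.3.3, edgeR 4.0.16 filtered genes (filterByExpr), scaled libraries (TMM) and gave robust quasi-likelihood F tests, 1 fit per fraction. Translation efficiency and ratios of fractions were fitted on 8 libraries, with a term for each culture. P-values were adjusted over all genes tested, with a threshold of 0.05. The standard error is the log2 change over the square root of F. Printed CPM are scaled over all 14 libraries and fitted ratios over their own 8, so they can differ slightly. Overlap between lines was judged on log2 of CPM plus 0.5. Positions, transcript and coding lengths come from GENCODE v29 (GRCh38) and promoters from RefSeq GRCh38.p14. They were matched by symbol, and no coordinate was converted.

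All 10 members and EIF4G2 are named, with the listed genes past the threshold in heavy translation efficiency or total mRNA, except a few listed genes that are not reported here. The members and lists were chosen with earlier results of these data known. The tests were tried on simulated data. Alternatives were DESeq2 1.42.0, library size without TMM, limma 3.58.1 on quantile-normalized log2 of CPM plus 1, no filter, all 14 libraries in 1 fit, a replicate block, offsets for coding length, other polysome pools as control, the unadjusted p, and each culture left out. A culture left out leaves 1 library of its line in each fraction, which is then assumed to vary like the pair of the other line. The members with the fewest reads in their lowest library were FOSB (26), FOS (76), ATF3 (103) and BATF3 (116). Replicate libraries had Pearson's r of 0.97 to 0.993 and differed beyond sampling noise.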

Additional observations from a re-analysis of the deposited data

How the results depend on the processing

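The number of members called in total mRNA (1) became 0 in 1 fit of all 14 libraries, without TMM and with limma. It was 2 at an unadjusted p. In heavy polysomes the 3 became 1 in the fit of 14 libraries, with no filter and with coding length offsets, and 0 with heavy and moderate pools summed. In light polysomes the 0 became 4 against the moderate pool and 1 at an unadjusted p, and in light translation efficiency 3 and 1. Heavy translation efficiency had 1 at an unadjusted p. Heavy over total had 1 in shDAP5 with limma and with length offsets, and 2 in shNSi with summed pools. Heavy over light in shNSi had 2 against the moderate pool. With each culture left out the number ran from 0 to 1 in total mRNA, 0 to 3 in heavy polysomes, 0 to 5 in light polysomes, 0 to 2 and 0 to 3 in heavy and light translation efficiency, 0 to 6 in heavy over total in shNSi, 0 in shDAP5, 5 to 7 in heavy over light in shNSi and 1 to 5 in shDAP5. Sign changes under the other alternatives were of members not called in either fit, except, under length offsets, ATF3 in both ratios of fractions in shNSi and BATF3 in heavy polysomes. Under length offsets these were ATF3 heavy over light (0.23) and heavy over total (0.10) in shNSi and heavy translation efficiency (−0.23), BATF3 heavy polysomes (−0.020) and heavy translation efficiency (−0.083), FOSL1 heavy over total in shDAP5 (−0.037), JUN heavy polysomes (−0.070), heavy over total in shDAP5 (−0.042) and heavy translation efficiency (−0.20), and JUNB heavy over total in shNSi (0.059) and heavy translation efficiency (−0.051). With summed pools they were ATF2 heavy polysomes (−0.034) and heavy translation efficiency (−0.092), FOSL2 (0.0019) and JUND (−0.11) heavy translation efficiency, and JUN (−0.088) and JUNB (0.073) heavy over total in shNSi. Against the moderate pool they were ATF3 (0.14) and FOSL1 (0.039) light translation efficiency. With limma they were FOSB light translation efficiency (−0.068), FOSL1 heavy over total in shDAP5 (−0.022), FOSL2 heavy polysomes (0.055), JUN heavy over light (−0.050) and heavy over total (−0.32) in shNSi, JUNB heavy over light (−0.0074) and heavy over total (−0.0034) in shDAP5, and JUNB light polysomes (0.13). Without TMM they were FOSL1 heavy over total in shDAP5 (−0.038) and JUN heavy over light (−0.027) and heavy over total (−0.32) in shNSi. DESeq2 gave FOSB light translation efficiency (−0.0073) and JUNB heavy over total in shNSi (0.021), and no filter gave the latter 0.013. The causes were not tested.

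With each culture left out in turn, values of members that changed sign ran as follows. In total mRNA they ran from −0.060 to 0.44 for ATF2, −0.14 to 0.44 for BATF3, −0.074 to 2.87 for FOS, −0.24 to 0.62 for FOSB, −0.32 to 0.19 for FOSL1, −0.13 to 0.19 for FOSL2 and −0.25 to 0.48 for JUN. In heavy polysomes it was −0.32 to 0.77 for ATF2 and −0.10 to 0.47 for JUN. In light polysomes it was −0.24 to 0.71 for BATF3, −0.31 to 0.78 for FOSB, −0.49 to 0.023 for FOSL1, −0.64 to 0.19 for FOSL2, −1.46 to 0.63 for JUN and −0.70 to 0.73 for JUNB. Heavy translation efficiency had −0.47 to 0.63 for ATF2, −0.31 to 0.49 for JUN and −0.14 to 0.52 for JUNB. Light translation efficiency had −0.17 to 0.037 for ATF3, −0.21 to 0.35 for BATF3, −0.40 to 0.58 for FOS, −0.31 to 0.28 for FOSB, −0.54 to 0.040 for FOSL2 and −1.17 to 0.14 for JUN. Heavy over total had −0.36 to 0.41 for JUN and −0.34 to 0.30 for JUNB in shNSi, and −0.79 to 0.31 for ATF2, −0.23 to 0.40 for FOSL1 and −0.097 to 0.45 for JUNB in shDAP5. Heavy over light had −0.76 to 0.048 for FOSB, −0.68 to 1.52 for JUN and −1.05 to 0.31 for JUNB in shNSi, and −0.43 to 0.20 for FOSB and −0.52 to 0.097 for FOSL1 in shDAP5.

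Correlations of deviations of same-numbered cultures ran from −0.27 to 0.0579. With 2 cultures per line, they do not show that the numbers pair the lines and cannot exclude it. With the replicate block 2 members were called in total mRNA (FOS 1.25, adjusted p = 0.0111, edgeR), 5 in heavy polysomes (FOS 1.55 and JUNB 0.76 gained), 1 in light polysomes (FOS 1.35) and 0 in both translation efficiencies, and JUNB in light polysomes turned to 0.020. The block moved all genes called from 53 to 365 in total mRNA, from 2012 to 688 in heavy translation efficiency and from 0 to 130 in light polysomes. With the pairing crossed, added after the data were seen, total mRNA had 1 member and 71 genes and heavy translation efficiency 0 and 4133.

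Scaling by library size moved the median of all genes from 0.0943 to 0.338 in heavy polysomes, 0.0911 to 0.304 in heavy translation efficiency, −0.0317 to −0.359 in heavy over total and −0.149 to −0.587 in heavy over light in shNSi, 0.00358 to −0.11 and −0.0336 to −0.234 in shDAP5. Limma moved heavy over total to −0.16 in both lines and heavy over light to −0.28 in shNSi and −0.22 in shDAP5. The share of calls that were lower went from 54.1% to 31.3% without TMM in heavy polysomes, from 48.4% to 79.9% in heavy over total and from 50.5% to 65.2% in heavy over light in shNSi, and from 50.1% to 63.7% in heavy over light in shDAP5. All genes called in total mRNA numbered 273 with DESeq2, 577 with no filter, 18 without TMM, 8 with limma and 3 in the fit of 14 libraries. In heavy translation efficiency they numbered 1132 with limma, 590 with length offsets, and 0 without TMM or with summed pools. In heavy polysomes they numbered 1495 with length offsets and 421 with summed pools. Leaving out a culture gave from 2 to 3559 in heavy polysomes and from 0 to 386 in total mRNA.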
